A study of Mus musculus with 2 samples.

Results

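The 31 genes described here fold, import and clear secretory proteins in the endoplasmic reticulum (ER) or sense and answer stress there. They were taken by name from a list of ER folding, translocation and unfolded protein response genes, with no threshold on measured values, and they make up 31 of the 19357 genes with a row in either library. All 31 were found, and they were read in each of 13 cell classes and in both groups. They were divided by textbook role into 6 groups, which are the luminal Hsp70 and Hsp90 machinery with its co-chaperones, lectin chaperones and disulfide isomerases, translocation, ER-associated degradation, stress sensors with Xbp1, and outputs of the PERK-ATF4 branch.

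Both groups were male C57BL/6 mice that lacked Apoe, which carries cholesterol-rich particles to the liver, so controls and diabetic mice alike were on a background prone to atherosclerosis. Diabetic mice received streptozotocin, a toxin of the insulin-producing beta cell, in 5 daily injections of 55 mg/kg that began at 6 weeks of age. Controls received the citrate vehicle on the same schedule, and both groups were followed for 10 weeks and were 17 weeks old when sampled. The dissociated aortae of 4 mice were pooled into 1 droplet single-cell library per group, so every difference below is between 2 libraries, each interval covers counting error only, and no p-value is given.

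Proteins that are secreted or sit in membranes enter the ER through the Sec61 channel, where the chaperone BiP (the product of Hspa5) and the lectin chaperones hold them and disulfide isomerases form their cross-links. When unfolded protein builds up, the sensors ATF6, IRE1 (the product of Ern1) and PERK (the product of Eif2ak3) start the unfolded protein response. ATF6 and the spliced form of XBP1 raise chaperone and degradation genes, while PERK slows translation and induces ATF4, which raises Ddit3, Trib3, Asns and Chac1. In the arterial wall, fibroblasts and smooth muscle cells secrete collagen and elastic fibres, and macrophages secrete complement and lysozyme, so these cells carry different loads of secretory protein.

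Several of the chaperones called lower in the diabetic library, Hspa5 and Pdia6 among them, hold an exact match of a short promoter element. Others such as Pdia4 and Sdf2l1 have no exact match in the 300 bases searched. Variant letters and sites further away were not searched. RefSeq promoter windows on GRCm38.p6 of 300 bases, which run from 250 bases before to 50 bases after each start site, were found for 27 of the 31 genes, all but Hyou1, Manf, Ssr2 and Atf6. The ER stress element, known as ERSE and bound by ATF6 with NF-Y, was searched on both strands as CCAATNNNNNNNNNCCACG. No matches of the elements searched overlapped in a member. ERSE was found in 8 of the 27 windows matched, and in 0.119% of all 32851 windows of the table (0.137% of genes). Members were picked by name as ER folding and stress genes, and ERSE is named for ER stress. Their higher share is therefore a description and not a test. The first stretch is the 250 bases before the start of Hspa5 (plus strand, chr2:34771840-34772089) and the other is the same stretch of Pdia6 (plus strand, chr12:17266339-17266588), with the exact ERSE in capitals. They are shown because Hspa5 and Pdia6 were called lower in more classes than any other member.
Hspa5: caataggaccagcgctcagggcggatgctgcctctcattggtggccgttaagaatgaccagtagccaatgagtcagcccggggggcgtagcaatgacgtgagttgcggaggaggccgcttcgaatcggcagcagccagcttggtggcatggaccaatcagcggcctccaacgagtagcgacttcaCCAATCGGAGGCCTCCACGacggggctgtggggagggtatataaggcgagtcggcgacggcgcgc
Pdia6: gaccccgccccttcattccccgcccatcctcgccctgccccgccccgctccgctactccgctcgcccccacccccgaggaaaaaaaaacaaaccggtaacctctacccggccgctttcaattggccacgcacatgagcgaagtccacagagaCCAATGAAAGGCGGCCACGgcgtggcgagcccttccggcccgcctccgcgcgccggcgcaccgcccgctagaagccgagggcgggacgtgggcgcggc

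The 9 exact ERSE matches of the 8 genes are aligned here, each read 5′ to 3′ on its own strand, with the fixed outer bases in capitals and the free spacer in lower case. Positions count from the start site, and a negative number lies before it.
Hspa5, chr2:34772025-34772043, positions -65 to -47: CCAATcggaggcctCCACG
Syvn1, chr19:6046532-6046550, positions -44 to -26: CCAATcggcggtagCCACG
Pdia6, chr12:17266491-17266509, positions -98 to -80: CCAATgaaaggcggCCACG
Dnajc3, chr14:118937827-118937845, positions -105 to -87: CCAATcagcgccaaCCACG
Canx, chr11:50325800-50325818, positions -145 to -127: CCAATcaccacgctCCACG
Hsp90b1, upstream match, chr10:86705638-86705656, positions -212 to -194: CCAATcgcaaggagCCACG
Hsp90b1, match nearer the start and on the opposite strand to the gene, chr10:86705533-86705551, positions -107 to -89: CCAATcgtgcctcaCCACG
Creld2, opposite strand, chr15:88819520-88819538, positions -126 to -108: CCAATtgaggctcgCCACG
Calr, opposite strand, chr8:84847075-84847093, positions -162 to -144: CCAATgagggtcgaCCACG

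A related element, ERSE-II, was searched as ATTGG and CCACG with any 1 base between them and stood in 2 members (Dnajb11 and Herpud1) and in 0.0365% of all windows. The core of the XBP1 element (UPRE, TGACGTGG) was in none of the 27 windows matched and in 0.676% of all windows, which says only that these letters are not in this stretch. The composite element bound by ATF4 with a C/EBP partner, TGATGNAA, stood in 4 members and in 3.97% of all windows. As with ERSE, the members were picked as genes of these known responses, so the shares are a description and not a test. Those 4 were Herpud1, whose window also holds ERSE-II, and the PERK-ATF4 outputs Trib3, Asns and Chac1, and their matches are printed because Trib3 was the member whose classes were called in opposite directions.
Herpud1, ERSE-II, chr8:94386377-94386387, positions -52 to -42: ATTGGgCCACG
Dnajb11, ERSE-II, chr16:22857852-22857862, positions 8 to 18: ATTGGcCCACG
Trib3, opposite strand, chr2:152344039-152344046, positions 15 to 22: TGATGtAA
Asns, chr6:7693225-7693232, positions -23 to -16: TGATGaAA
Chac1, opposite strand, chr2:119351049-119351056, positions -193 to -186: TGATGcAA
Herpud1, ATF4 element, opposite strand, chr8:94386317-94386324, positions -112 to -105: TGATGcAA

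The control library held 15314749 unique molecular identifiers (UMIs, each counting 1 captured transcript molecule) in 4215 barcodes and the diabetic library 17647604 in 3458 barcodes. The authors' deposited annotation gives a class to 3060 control and 2524 diabetic cells, with a median of 3760 and 4477.5 UMIs per cell. The libraries shared 15 barcodes, of which 8 were annotated in both. Of the 13 classes, 7 had at least 50 cells in each library and were compared, namely 3 of fibroblasts (Fib-1, Fib-2 and Fib-3), 2 of vascular smooth muscle cells (VSMCs-1 and VSMCs-2), endothelial cells (ECs) and macrophages (Mac). Cells with at least 3 markers of the named type made up 371 of 386 control and 223 of 245 diabetic cells of Fib-1, 880 of 907 and 508 of 533 of Fib-2, all of Fib-3, 127 of 134 and 148 of 159 of VSMCs-1, 496 of 496 and 855 of 856 of VSMCs-2, 348 of 366 and 217 of 228 of ECs, and 503 of 510 and 203 of 229 of Mac. UMIs were summed over the cells of a class and scaled to a total of 1000000 (CPM). They come from the 3′ end and are not scaled by transcript length, so levels are compared between libraries and classes and not between genes.

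Summed over the 31 genes, transcripts of the ER machinery were lower in the diabetic library in every one of the 7 classes. Fibroblasts held the most in both libraries and showed the largest differences of the 7. In Fib-2 the sum was 10922 CPM in control cells against 7129 CPM in the diabetic library, a ratio of diabetic over control of 0.653 (95% interval 0.641 to 0.665). In Fib-1 it was 10817 and 7224 CPM (ratio 0.668, 0.636 to 0.701), and in Fib-3 it was 8914 and 5749 CPM (ratio 0.645, 0.615 to 0.677). The intervals of the 3 fibroblast ratios overlap, so these classes could not be ordered by the size of the difference.

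Endothelial and muscle cells held less. In ECs the sum was 6367 CPM in control cells against 4820 CPM in the diabetic library (ratio 0.757, 0.728 to 0.787), in VSMCs-2 it was 4901 and 3711 CPM (ratio 0.757, 0.741 to 0.774), and in VSMCs-1 it was 5921 and 5019 CPM (ratio 0.848, 0.797 to 0.902). Mac went from 4867 to 4129 CPM (ratio 0.848, 0.820 to 0.877). Among control cells the sums of Fib-1 and Fib-2 had overlapping intervals, as did those of VSMCs-2 and Mac, while Fib-3, ECs and VSMCs-1 each stood apart from their neighbours beyond counting error. Over all annotated cells pooled, the ratio was 0.639 (0.633 to 0.646), and with the 7 classes weighted by their control UMIs in both libraries it was 0.711. The pooled value therefore includes a difference in class make-up, since VSMCs-2 made up 496 of 3060 control and 856 of 2524 diabetic annotated cells and Fib-2 made up 907 and 533.

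A gene counted as called in a class if it had 30 or more UMIs over both libraries, a 1.5-fold or larger difference, and a ratio whose interval left out 1. By this rule 9 of the 23 members tested were called lower in Fib-3, where 6.58% of all genes tested were. Fib-1 had 7 of 22 (5.26% of all genes), Fib-2 had 7 of 30 (3.62%) and ECs had 8 of 25 (4.02%). In the other classes 5 of 27 were lower in VSMCs-2 (3.9%), 4 of 27 in Mac (5.66%) and 3 of 19 in VSMCs-1 (4.82%). Members called higher were 1 of 30 in Fib-2, where 5.43% of all genes were, and 2 of 27 in Mac, where 8.79% were. None was called higher in Fib-1, Fib-3, VSMCs-1, VSMCs-2 or ECs, against 3.45%, 4.15%, 3.23%, 4.77% and 4.18% of all genes. Over all annotated cells 11 of 31 were called lower (10.1% of all genes) and 0 higher (8.95%). The share called lower stood above that of all genes in each class, and the share called higher was at or below it.

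The median log2 ratio of the members tested was -0.56 in Fib-3, -0.41 in Fib-1, -0.39 in Fib-2, -0.30 in ECs, -0.19 in VSMCs-2, -0.06 in Mac and -0.01 in VSMCs-1. Over all genes tested in the same classes the medians lay between -0.08 (Fib-1) and 0.06 (Mac). In Mac and VSMCs-1 the median was near 0 beside a summed ratio of 0.848. Hspa5 and Hsp90b1, which have many UMIs, were lower in both classes. Not every member with many UMIs was, as Calr in VSMCs-1 (ratio 1.01) and Sec61b in Mac (1.37) were not.

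**Figure D1:**
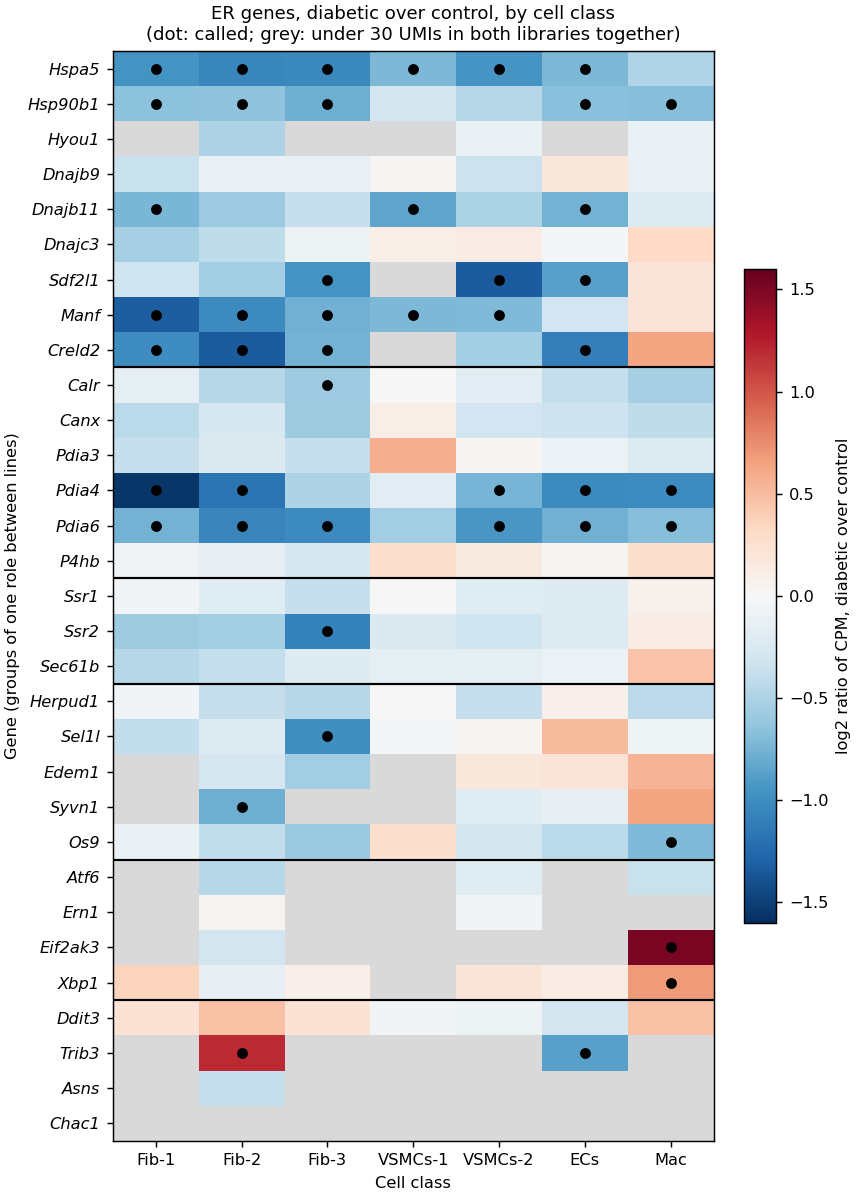
Heat map of the log2 ratio of CPM, diabetic over control, for the 31 genes (rows, grouped by role between lines) in the 7 classes (columns). Blue is lower and red higher in the diabetic library, a dot marks a called gene, and grey marks under 30 UMIs. Hspa5 and Pdia6 have a dot in 6 of 7 columns, and red dots appear at Trib3 in Fib-2 and at Xbp1 and Eif2ak3 in Mac.

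The luminal Hsp70 and Hsp90 machinery differed most. Hspa5 encodes BiP, the Hsp70 of the ER lumen and the chaperone that keeps the 3 stress sensors inactive. In fibroblasts its level was 1998 CPM in control cells against 1026 CPM in diabetic cells of Fib-1 (ratio 0.514, 0.453 to 0.581), 2101 and 1018 CPM in Fib-2 (ratio 0.485, 0.462 to 0.508) and 1451 and 708 CPM in Fib-3 (ratio 0.488, 0.426 to 0.557). In smooth muscle it was 1303 and 791 CPM in VSMCs-1 (ratio 0.607, 0.525 to 0.701) and 996 and 517 CPM in VSMCs-2 (ratio 0.520, 0.493 to 0.547). ECs held 1046 and 636 CPM (ratio 0.608, 0.548 to 0.674). All 6 of these classes were called lower, and the control and diabetic intervals did not overlap in any of them. Mac, at 823 and 589 CPM, had an interval below 1 (ratio 0.716, 0.655 to 0.781) and missed the 1.5-fold rule. In the 6 smaller classes the Hspa5 level was also lower in the diabetic library, so that it was lower in 13 of 13 classes.

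Hsp90b1 encodes GRP94, the Hsp90 of the ER, which folds integrins and insulin-like growth factors. It was called lower in 5 classes, with 1484 and 942 CPM in Fib-1 (ratio 0.635), 1318 and 841 CPM in Fib-2 (0.638), 1094 and 635 CPM in Fib-3 (0.580), 732 and 460 CPM in ECs (0.629) and 544 and 339 CPM in Mac (0.624). VSMCs-2 went from 523 to 382 CPM (ratio 0.730, 0.683 to 0.781) and VSMCs-1 from 636 to 518 CPM (ratio 0.814, 0.671 to 0.988), both short of the 1.5-fold rule. Over all 13 classes the interval of Hsp90b1 lay below 1 in each. The calls of Fib-1, Fib-2 and Mac were lost when mitochondrial, ribosomal protein and haemoglobin genes were left out of the scaling (that of Mac also after thinning), and over all alternatives these ratios reached at most 0.680, 0.669 and 0.678.

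Manf, a small protein that binds BiP and is released under ER stress, separated the classes. In Fib-1 it went from 1152 to 464 CPM (ratio 0.402, 0.335 to 0.481), in Fib-2 from 829 to 408 CPM (0.492, 0.456 to 0.531) and in Fib-3 from 677 to 398 CPM (0.587, 0.488 to 0.704). It was also called lower in VSMCs-1, at 355 and 216 CPM (0.607), and in VSMCs-2, at 260 and 159 CPM (0.612). Both of these calls were lost without cells with markers of another type, and those of VSMCs-1 and Fib-3 after thinning. ECs, at 334 and 271 CPM, had a ratio of 0.810 (0.684 to 0.958). Mac held 225 CPM in control cells against 259 CPM in the diabetic library (ratio 1.15, 0.998 to 1.33), so the only class compared in which Manf was not lower was the macrophage class, where the interval reached 1.

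Creld2, another ER stress-induced protein with isomerase activity, was at 117 and 46.3 CPM in Fib-2 (ratio 0.396, 0.315 to 0.495), at 138 and 69.2 CPM in Fib-1 (0.502), at 85.0 and 50.4 CPM in Fib-3 (0.592, 0.339 to 0.996) and at 27.4 and 12.9 CPM in ECs (0.469, 0.212 to 0.963), and was called lower in all 4. The ECs value rests on 30 control and 11 diabetic UMIs, and its call and that of Fib-3 were each lost under 5 of 9 alternatives. In Mac it was at 20.6 and 31.9 CPM (ratio 1.54, 0.984 to 2.40). Sdf2l1, a partner of the BiP co-chaperones, fell from 25.1 to 9.97 CPM in VSMCs-2 (ratio 0.396), from 181 to 93.2 CPM in Fib-3 (0.514) and from 55.8 to 30.4 CPM in ECs (0.546), and stood at 116 and 134 CPM in Mac (1.15, 0.943 to 1.41). Without cells that carried markers of another type, and after thinning, the ECs ratio of Sdf2l1 was no longer called. Thinning also ended its calls in VSMCs-2 (ratios of 0.0828 to 0.517 over the alternatives) and Fib-3, and the Fib-1 call of Creld2. After thinning the minimum of 30 UMIs applied to fewer UMIs, so a call can be lost without a change in ratio.

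Dnajb11, a J-protein that hands unfolded chains to BiP, was called lower in Fib-1 (274 and 166 CPM, ratio 0.604), in ECs (184 and 109 CPM, 0.592) and in VSMCs-1 (124 and 68.8 CPM, 0.557), and in Fib-2 it lay just short of the rule at 272 and 182 CPM (0.671, 0.595 to 0.755). The Fib-1 call was lost when every cell had equal weight. The VSMCs-1 call rests on 40 and 30 UMIs and was lost under 4 of 9 alternatives. Of the other members of this group, the J-proteins Dnajb9 (ratios 0.780 to 1.13) and Dnajc3 (0.695 to 1.25) were called in no class. Hyou1, the ER's large Hsp70 relative and nucleotide exchange factor, had enough UMIs in 3 classes (ratios 0.711 to 0.928) and was not called.

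**Figure D2:**
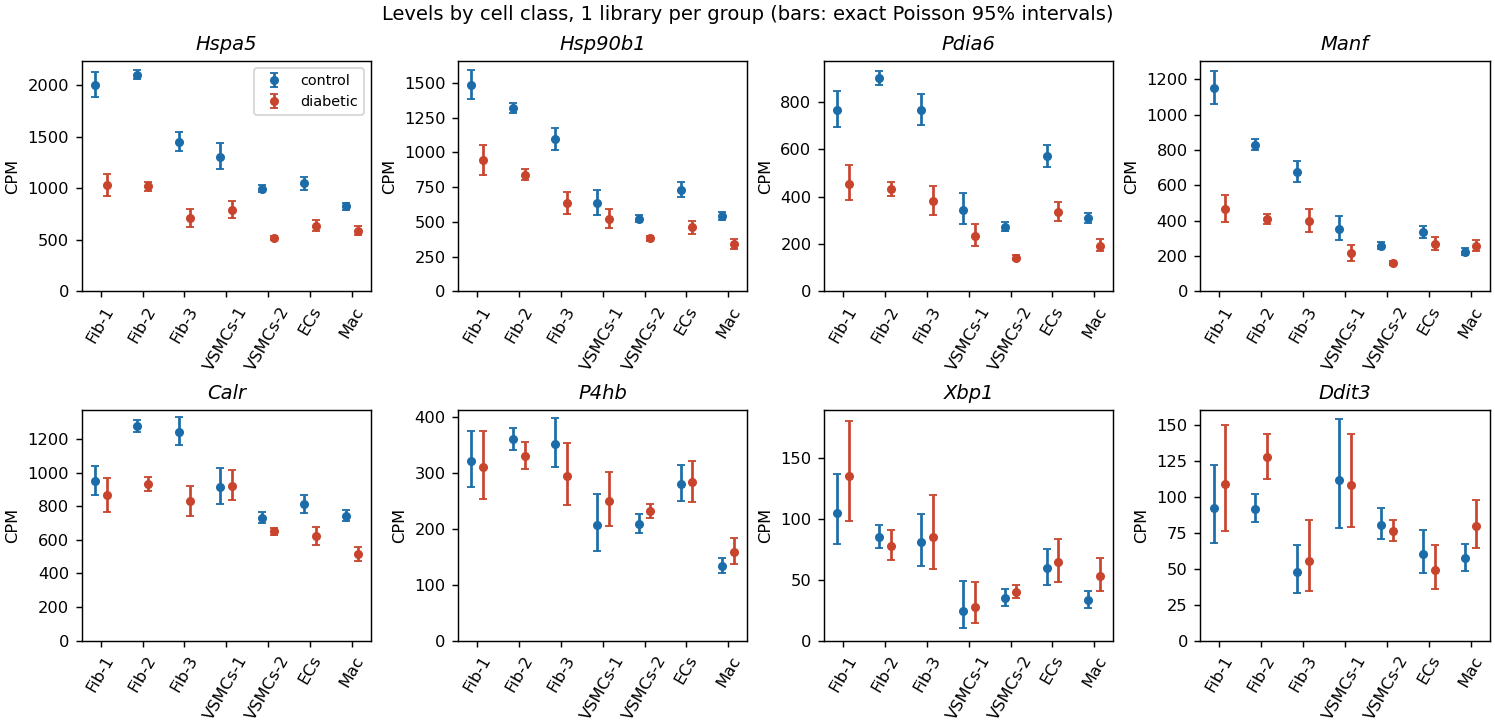
Level in CPM of 8 of the genes in control (blue) and diabetic (red) cells of the 7 classes, with exact Poisson 95% intervals for 1 library per group. The control points of Hspa5 lie above the diabetic points in every class, whereas those of P4hb, Xbp1 and Ddit3 overlap in most.

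Among the lectin chaperones and disulfide isomerases, the isomerases Pdia6 and Pdia4 were called lower in 6 and 5 of the 7 classes, Calr in 1 and the other 3 members in none. Pdia6 encodes the isomerase P5, which also binds the sensors IRE1 and PERK. It was called lower in 6 classes, at 767 and 455 CPM in Fib-1 (ratio 0.593), 902 and 432 CPM in Fib-2 (0.479, 0.445 to 0.515), 768 and 380 CPM in Fib-3 (0.495), 274 and 143 CPM in VSMCs-2 (0.523), 572 and 335 CPM in ECs (0.586) and 310 and 194 CPM in Mac (0.626). The Fib-1 call of Pdia6 was lost after thinning, and its Mac call when mitochondrial, ribosomal protein and haemoglobin genes were left out of the scaling. VSMCs-1, at 346 and 236 CPM, had a ratio of 0.683 (0.517 to 0.9002), just outside the 1.5-fold rule. Pdia4, the isomerase ERp72, was called lower in 5 classes, at 220 and 75.3 CPM in Fib-1 (0.341, 0.212 to 0.530), 318 and 142 CPM in Fib-2 (0.447), 127 and 75.5 CPM in VSMCs-2 (0.596), 178 and 87.8 CPM in ECs (0.492) and 123 and 61.1 CPM in Mac (0.496). The Mac call of Pdia4 was lost after thinning and its VSMCs-2 call without cells with markers of another type. The Fib-1 value of Pdia4 was the lowest ratio of any called member in a class.

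P4hb encodes protein disulfide isomerase itself, which is also the beta subunit of collagen prolyl 4-hydroxylase, and it did not follow Pdia6 and Pdia4. Its ratio lay between 0.836 (0.665 to 1.04) in Fib-3 and 1.21 (0.883 to 1.66) in VSMCs-1, and in VSMCs-2 it was at 209 CPM in control cells against 231 CPM in the diabetic library (1.11, 1.003 to 1.22). Calr, the calcium-binding lectin chaperone calreticulin, was called lower in Fib-3 only, at 1244 and 828 CPM (0.666, 0.585 to 0.756). That ratio sits at the 1.5-fold line, and the call was lost under 5 of 9 alternatives. In Fib-2 Calr was at 1278 and 929 CPM (0.727, 0.689 to 0.767), in Mac at 744 and 513 CPM (0.690), and in VSMCs-1 it was level at 914 and 922 CPM (1.01, 0.865 to 1.18). Canx, the membrane-bound lectin chaperone (ratios 0.673 to 1.07), and Pdia3, the isomerase that works with both lectins (0.772 to 1.495), were called in no class, and Pdia3 came closest to a call upwards, in VSMCs-1 (216 and 323 CPM, ratio 1.495, interval 1.11 to 2.02).

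Of the translocation genes, 1 was called in 1 class. Ssr2, a subunit of the TRAP complex that helps chains enter the Sec61 channel, was at 196 and 93.2 CPM in Fib-3 (ratio 0.474, 0.321 to 0.685), its only call. This call was lost after thinning to 1000 UMIs, and over the alternatives the ratio reached 0.931. It was at 342 and 234 CPM in Fib-2 (0.685) and at 291 and 196 CPM in Fib-1 (0.671), with both intervals below 1. Ssr1, another TRAP subunit (ratios 0.774 to 1.05), and Sec61b, a subunit of the channel, were called in no class. Sec61b went in different directions by class, from 621 to 477 CPM in Fib-2 (0.768, 0.712 to 0.827) and from 334 to 458 CPM in Mac (1.37, 1.23 to 1.53), and these intervals do not overlap.

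Of the ER-associated degradation genes, which bring misfolded proteins back to the cytosol, single calls were spread over classes. Sel1l, the scaffold of the HRD1 ubiquitin ligase, was called lower in Fib-3 at 69.7 and 35.3 CPM (0.506, 0.258 to 0.930, lost under 5 of 9 alternatives) and was at 49.4 and 70.3 CPM in ECs (1.42, 0.968 to 2.09). Syvn1, the ligase HRD1, was called lower in Fib-2 at 22.8 and 13.2 CPM (0.580, 0.364 to 0.8996), but without cells that carried markers of another type the ratio was 1.01 (0.546 to 1.83). Os9, a lectin that delivers glycoproteins to this ligase, was called lower in Mac at 97.1 and 59.3 CPM (0.611, 0.460 to 0.802). Herpud1, a ligase cofactor that ER stress induces strongly, was called in no class (0.727 to 1.06) but was called over all annotated cells, at 245 and 156 CPM (0.637), and this pooled call was lost under 4 of 10 alternatives, among them the weighting of the 7 classes by their control UMIs. Edem1, which trims mannose from misfolded glycoproteins, had ratios from 0.678 (0.277 to 1.51) in Fib-3 to 1.45 (1.07 to 1.96) in Mac and was not called.

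No sensor was called lower in any of the 7 classes, nor was Xbp1, although over all annotated cells their sum had a ratio of 0.890 (0.817 to 0.969). Xbp1, the transcription factor whose mRNA IRE1 splices, was at 85.5 and 78.0 CPM in Fib-2 (0.912, 0.751 to 1.11), 34.9 and 40.2 CPM in VSMCs-2 (1.15, 0.906 to 1.48) and 33.3 and 53.1 CPM in Mac (1.597, 1.13 to 2.24), where it was called higher, a call lost under 3 of 9 alternatives. Gene-level 3′ counts do not separate spliced from unspliced Xbp1 mRNA, so IRE1 activity was not measured. Eif2ak3, which encodes PERK, was also called higher in Mac, at 8.03 and 23.0 CPM (2.87, 1.55 to 5.36), a ratio that rests on 21 control and 26 diabetic UMIs and was not called after thinning. Thinning leaves fewer UMIs against the same minimum of 30, so that loss alone does not show a changed ratio. In Fib-2, the only other class with 30 UMIs of Eif2ak3, the ratio was 0.814 (0.495 to 1.31). Atf6 (0.727 to 0.876) had enough UMIs in Fib-2, VSMCs-2 and Mac and Ern1 (0.973 to 1.03) in Fib-2 and VSMCs-2, and neither was called.

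Of the PERK-ATF4 outputs, Trib3 was the member called in opposite directions. Ddit3, the stress-induced transcription factor CHOP, was at 91.6 CPM in control cells against 127 CPM in diabetic cells of Fib-2 (1.39, 1.18 to 1.64), at 57.3 and 79.7 CPM in Mac (1.39, 1.06 to 1.82) and at 60.4 and 49.2 CPM in ECs (0.815, 0.540 to 1.22), and was called in no class. Trib3, a pseudokinase induced by ATF4 and CHOP, was called higher in Fib-2 at 8.25 and 18.9 CPM (2.29, 1.39 to 3.81, from 30 and 40 UMIs, not called after thinning) and lower in ECs at 38.4 and 21.1 CPM (0.549, 0.297 to 0.974, from 42 and 18 UMIs, lost under 3 of 9 alternatives). The intervals of the Trib3 ratios in these classes do not overlap. Asns, asparagine synthetase, was tested in Fib-2 alone among the 7 classes (8.53 and 6.62 CPM, 0.776, 0.382 to 1.503) and was called lower over all annotated cells at 6.46 and 3.38 CPM (0.524, 0.349 to 0.775), a call lost when the 7 classes were weighted by their control UMIs. Chac1, an enzyme that degrades glutathione, had under 30 UMIs in each class and 12 and 19 UMIs over all annotated cells (1.66, 0.764 to 3.75).

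The roles were then summed. The luminal machinery went from 5165 to 2927 CPM in Fib-2 (ratio 0.567, 0.551 to 0.583), from 2096 to 1308 CPM in VSMCs-2 (0.624, 0.603 to 0.646) and from 2050 to 1658 CPM in Mac (0.809, 0.767 to 0.852). Lectin chaperones and isomerases had ratios of 0.688, 0.841 and 0.735 in these 3 classes, and translocation genes 0.757, 0.875 and 1.26 (1.15 to 1.38). PERK-ATF4 outputs together were at 109 and 155 CPM in Fib-2 (1.42, 1.22 to 1.64), of which Ddit3 supplied 333 of 397 control UMIs and 269 of 327 diabetic UMIs. In 6 of 7 classes, all but Mac, the luminal machinery had the lowest ratio of the 6 roles.

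**Figure D3:**
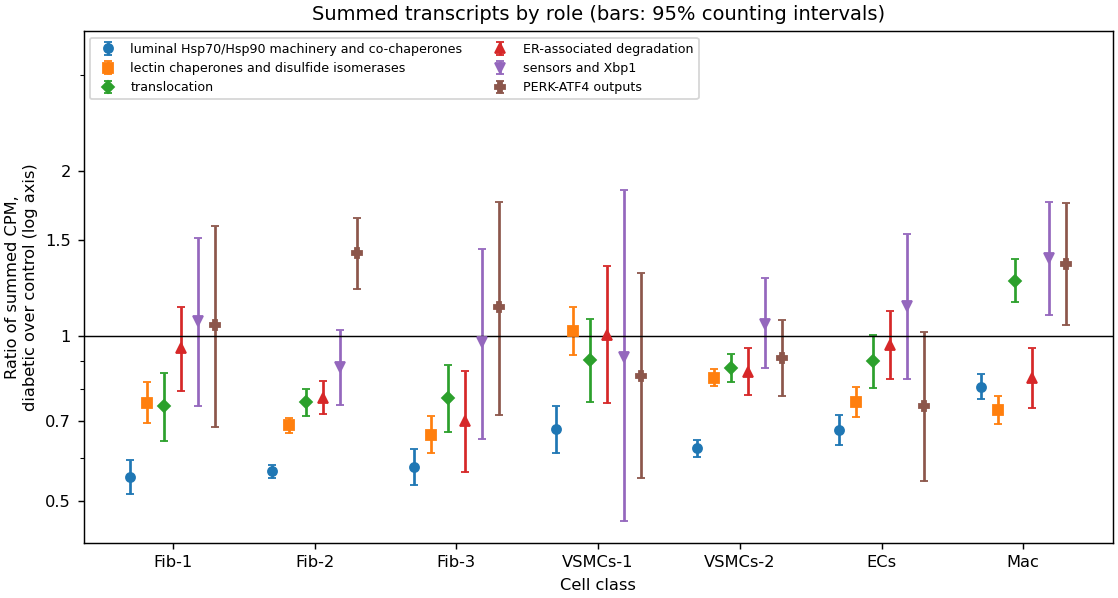
Ratio of summed CPM, diabetic over control (log axis), of the 6 role groups in the 7 classes, with 95% counting intervals. The luminal machinery (blue circles) lies between 0.553 in Fib-1 and 0.809 in Mac, while PERK-ATF4 outputs, with wide intervals, run from 0.746 in ECs to 1.42 in Fib-2 and sensors with Xbp1 from 0.878 in Fib-2 to 1.39 in Mac.

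Within a class the difference was not confined to a few cells. After each cell was thinned to 1000 UMIs, the median control cell of Fib-2 held 10 UMIs of the 31 genes (quartiles 7 and 14, 907 cells) and the median diabetic cell 7 (quartiles 4 and 9, 533 cells). In Fib-1 the medians were 11 (275 cells) and 7 (153 cells), after 111 control and 92 diabetic cells under 1000 UMIs were left out. In VSMCs-2 they were 4 and 3, in ECs 6 and 4, and in Mac 5 and 4. Hspa5 alone had a median of 2 UMIs per control cell and 1 per diabetic cell of Fib-2. The lower and upper quartiles shifted with the median in Fib-2.

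The 6 classes with under 50 cells in a library are given as levels. Foam cells, lipid-laden macrophages, were the class with no lower value, at 5267 CPM in the 35 control cells and 5393 CPM in the 17 diabetic ones (ratio 1.02, 0.938 to 1.12). In the other 5 the ratios were 0.770 in MoDC, 0.767 in Mono, 0.768 in NKT Cells, 0.620 in B Cells and 0.713 in T cells. Of 28 control cells labelled B Cells, 1 had at least 2 plasma cell markers, a cell type with a large ER, and this cell held 20335 of the class's 87918 UMIs. Without it, the control level of the class was 3137 CPM (2729 to 3589, 27 cells) against 2121 CPM (1791 to 2495, 30 cells) in the diabetic library. Barcodes without a class, which entered none of these values, were at 5314 and 1574 CPM (0.296, 0.289 to 0.304). These were 1155 control and 934 diabetic barcodes of mixed kinds. The part of a different make-up in this ratio was not tested, so it cannot be set beside those of the classes.

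The secretory load of a class was taken as the summed CPM of 93 listed matrix proteins and 79 other listed secreted proteins. Fibroblasts were highest in both the ER genes and this load, while control Mac carried more load than ECs or either muscle class and had an ER gene sum below those of ECs and VSMCs-1 and within counting error of VSMCs-2. Fib-2 carried 163820 secretory CPM in control cells and 136550 in diabetic ones, Fib-1 145720 and 131880, Fib-3 98675 and 88034, Mac 73360 and 51388, ECs 62559 and 53895, VSMCs-1 53071 and 49946, and VSMCs-2 50471 and 43074. Over these 14 class by library points Pearson's r between the log2 levels of the ER genes and of the secretory load was 0.88 and Spearman's rho 0.84. Against matrix proteins alone rho was 0.94 and r 0.64, and against the other secreted proteins rho was 0.49 and r 0.54. By r, matrix proteins alone were therefore less like the ER genes than the whole load was. The points share their libraries and the CPM scale, on which a large secretory share lowers all other genes, and they are described with no test.

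Secretory transcripts were themselves lower in the diabetic library, and in 6 of 7 classes the ER genes were lower by more. The secretory ratio was 0.834 in Fib-2, 0.905 in Fib-1, 0.892 in Fib-3, 0.941 in VSMCs-1, 0.853 in VSMCs-2 and 0.862 in ECs, against ER gene ratios of 0.653, 0.668, 0.645, 0.848, 0.757 and 0.757. Per 100 secretory UMIs, Fib-2 held 6.67 ER gene UMIs in control and 5.22 in diabetic cells, Fib-3 9.03 and 6.53, and VSMCs-2 9.71 and 8.61. Mac was the exception, since its secretory load was lower by more (ratio 0.7005) than its ER genes (0.848) and the quotient went from 6.63 to 8.03. In that class C1qa, a complement subunit, went from 7353 to 3983 CPM and the secreted protein gene Retnla from 1870 to 918 CPM. Across the 7 classes the log2 ratio of ER genes had a Pearson's r of 0.76 with that of matrix proteins (Spearman's rho 0.86). With that of the whole load r was -0.34 and rho -0.14. Mac had the lowest load ratio of the 7, and r without Mac was not computed, so the sign of this r cannot be read.

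**Figure D4:**
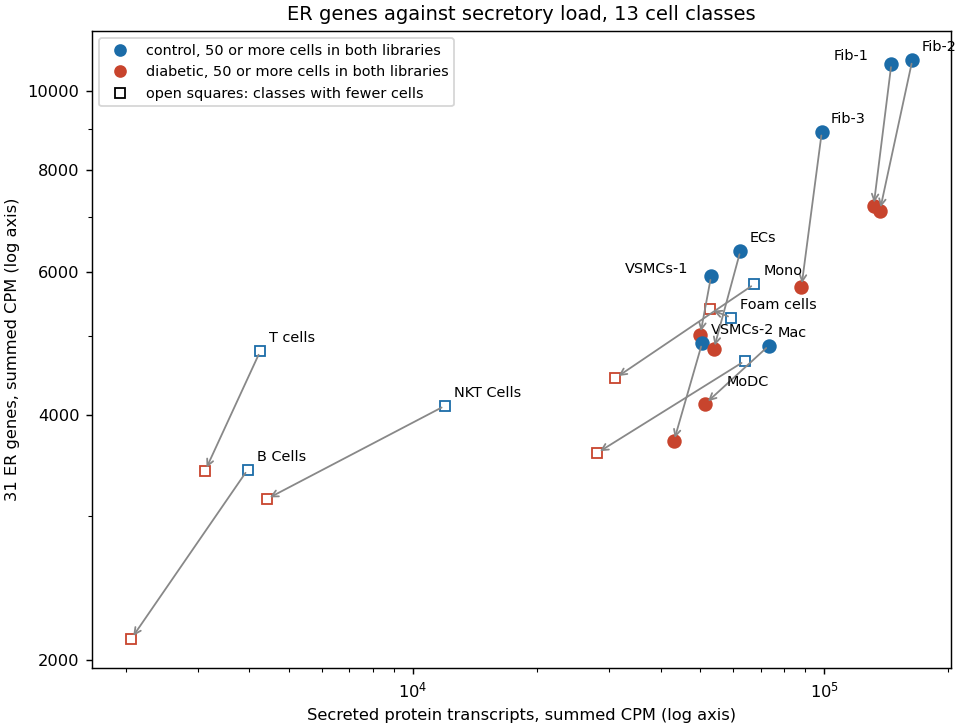
Summed CPM of the 31 ER genes against summed CPM of secreted proteins (both log axes) in the 13 classes. An arrow runs from the control (blue) to the diabetic (red) point of a class, and open squares are classes with under 50 cells in a library. The arrows of Fib-1, Fib-2 and Fib-3 point steeply down, from 8914 to 10922 CPM (control) to between 5749 and 7224 CPM (diabetic), while that of Mac runs mostly to the left.

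Cells of the same secretory load also differed. Cells of each class were thinned to 1000 UMIs and cut at the tertiles of their secretory UMIs over both libraries. In Fib-2 the ratio of the ER genes was 0.672 (0.630 to 0.716) in the lowest tertile, 0.648 (0.607 to 0.692) in the middle and 0.655 (0.609 to 0.704) in the highest. Median secretory UMIs of control and diabetic cells were 106 and 96 in the lowest, 149.5 and 147 in the middle and 197 and 196.5 in the highest tertile, so cells of near-equal load were compared. In VSMCs-2 the ratios were 0.807, 0.807 and 0.684, in ECs 0.849, 0.6999 and 0.809, and in Fib-1 0.742, 0.658 and 0.708, with every interval below 1. Fib-3 gave 0.685, 0.616 and 0.732. VSMCs-1 had a middle tertile at 1.02 (0.835 to 1.25), and Mac a lowest tertile at 0.964 (0.849 to 1.09), so those are the tertiles whose intervals reach 1.

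**Figure D5:**
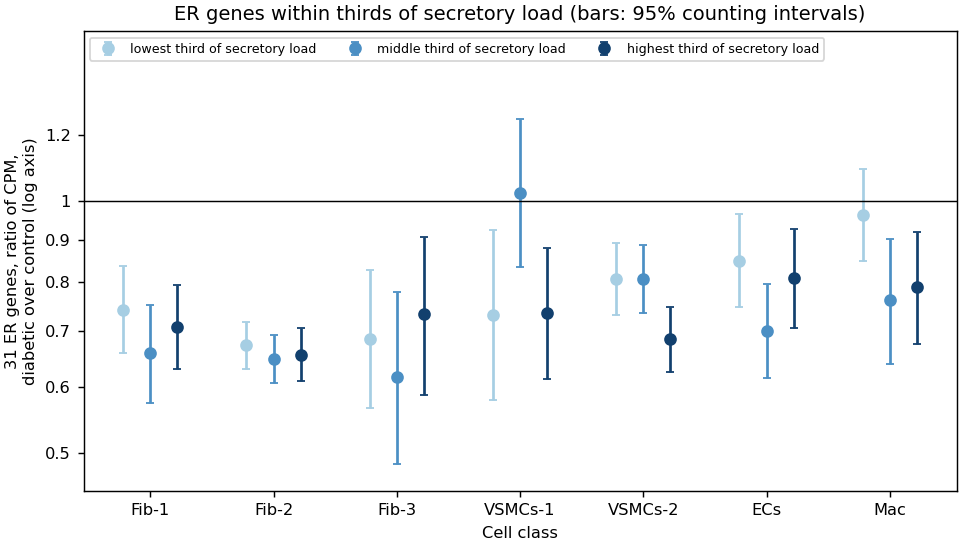
Ratio of the summed ER genes, diabetic over control (log axis), in cells of low, middle and high secretory load within each of the 7 classes, with 95% counting intervals. All 3 points of Fib-2 lie between 0.648 and 0.672, and the middle point of VSMCs-1 and the lowest of Mac lie at the line of equality.

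Other genes of the secretory pathway, from lists of names, were read in the same way. Collagen folding genes were lower in sum in Fib-2 (ratio 0.584, 0.569 to 0.598), Fib-1 (0.602), VSMCs-2 (0.709) and ECs (0.732). In Fib-2 5 of 19 were called lower (3.62% of all genes) and 0 higher (5.43%). In VSMCs-2 the sum and the median of this list differ in sign, as the median log2 ratio of its 19 genes tested was 0.19 and 4 were called lower (3.9% of all genes). Serpinh1, the collagen chaperone HSP47, went from 4612 to 2290 CPM in Fib-2 (0.496, 0.481 to 0.513), from 5733 to 2902 CPM in Fib-1 (0.506), from 1536 to 873 CPM in VSMCs-2 (0.568) and from 762 to 437 CPM in ECs (0.573). The sums of the whole list were 6607 and 3856 CPM in Fib-2, 7731 and 4651 CPM in Fib-1 and 2649 and 1878 CPM in VSMCs-2. Serpinh1 alone thus supplied much of these sums, and their ratios without it were not computed. P4ha2, a catalytic subunit of prolyl 4-hydroxylase and partner of P4hb, was at 102 and 45.4 CPM in Fib-2 (0.446) and at 132 and 62.1 CPM in ECs (0.471), while P4hb itself was called in neither class. Of 25 other translocon, signal peptidase and glycosylation genes, 5 were called lower in Fib-2 (3.62% of all genes), 5 in Fib-1 (5.26%) and 5 in Fib-3 (6.58%). In ECs 2 were called lower (4.02%), and in VSMCs-2 (3.9%) and Mac (5.66%) 0 were. Spcs2, a subunit of signal peptidase, was at 375 and 222 CPM in Fib-2 (0.592), and Ostc, a subunit of the oligosaccharyltransferase, at 392 and 237 CPM (0.606). All 20 ER to Golgi transport genes tested in Fib-2 had ratios under 1, as did 4396 of all 9281 genes tested there. Of the 20, 1 was called lower (3.62% of all genes), Kdelr3, a receptor that returns ER residents (192 and 123 CPM, 0.642).

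Other ATF4 pathway genes were not lower as a group in fibroblasts. In Fib-2 their median log2 ratio was 0.23 over 25 tested, where that of all genes was 0.03, with Gdf15 (8.53 and 15.6 CPM, 1.83) and Sesn2 (12.4 and 20.8 CPM, 1.68) called higher and the proline synthesis gene Aldh18a1 (37.7 and 18.9 CPM, 0.502) called lower. Of all genes in that class 5.43% were called higher and 3.62% lower. In Mac 2 of 23 were called higher (8.79% of all genes were) and 1 lower (5.66%), with a ratio of the sum of 0.938 (0.895 to 0.984). These were Slc7a11, the cystine importer (80.7 and 172 CPM, 2.13), Sesn2 (7.26 and 15.0 CPM, 2.07) and, called lower, Sars (47.8 and 29.2 CPM, 0.611). In VSMCs-2 none of 22 was called, where 4.77% of all genes were called higher and 3.9% lower. The heat shock genes of cytosol and mitochondria were lower in sum in VSMCs-1 (ratio 0.616, 0.584 to 0.649) and VSMCs-2 (0.687), by more than the ER genes there (0.848 and 0.757), and by less in Fib-2 (0.906) than the ER genes (0.653). Hspa8, the cytosolic Hsp70 cognate, was at 4128 and 2448 CPM in VSMCs-2 (0.593).

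The non-members whose log2(CPM + 10) over the 14 class by library points was most like that of the 31 genes together, of 2607 candidates with a mean of at least 50 CPM, were Ppib (r 0.94), Spcs3 (0.94), Ggh (0.91), Rpn1 (0.90) and Ostc (0.90). Ppib is an ER prolyl isomerase, Spcs3 a signal peptidase subunit, and Rpn1 and Ostc belong to the oligosaccharyltransferase. Among the members, Hsp90b1 (r 0.98), Manf (0.95), Pdia6 (0.94) and Dnajb11 (0.93) were most like the sum of the others, and Ddit3 (0.16), Edem1 (-0.14) and Atf6 (0.00) least among those tested in at least 3 classes.

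Members were then read by promoter element, among the 27 with a window. In Fib-2 the 10 members with ERSE or ERSE-II had a median log2 ratio of -0.61 with 5 of 10 called lower where 3.62% of all genes were, and the 16 tested without either had -0.22 with 1 called lower and 1 higher. Syvn1 is among those 5, and its ratio was 1.01 without cells with markers of another type. Members with and without an element were not matched for UMIs. In ECs the medians were -0.53 (5 of 10 lower) and -0.10 (3 of 13), against 4.02% of all genes, and in VSMCs-2 they were -0.41 (2 of 10) and -0.08 (2 of 13), against 3.9%. In Mac they were -0.41 (2 of 10 lower) and 0.21 (2 lower and 2 higher of 13), against 5.66% lower and 8.79% higher of all genes. The median of members with an element was the lower in each of the 7 classes. Pdia4, Sdf2l1, Sel1l, Os9 and Trib3 were called lower in at least 1 class with neither element in the window, and Canx, Dnajc3 and Herpud1 hold one and were called in none of the 7 classes. Among 39 genes outside the 31 with either element, 12 were tested in Fib-2, of which 1 was called lower and 2 higher (median -0.16), where all non-members with a window had a median of 0.03 and 3.45% called lower. In Fib-3 1 of 4 was called lower (6.13% of all non-members with a window). In the other 5 classes none of the 4 to 11 tested was called, where 3.36% (VSMCs-2) to 5.39% (Mac) of all were called lower. With so few genes tested these counts cannot be read either way. The median of these non-members with an element lay between -0.30 and -0.16 in 6 classes, below that of all non-members with a window in each. In Mac it was 0.16, where that of all was 0.06.

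Transcripts of other cell types also differed between the libraries within these classes. All 8 macrophage markers were found in control cells of Fib-2 and 7 in diabetic cells, and their sum went from 304 to 61.9 CPM there, from 443 to 166 CPM in Fib-1, from 400 to 30.2 CPM in Fib-3, from 180 to 39.0 CPM in VSMCs-2, from 269 to 82.5 CPM in VSMCs-1 and from 383 to 186 CPM in ECs. Cells with at least 2 of these markers numbered 143 of 907 control and 16 of 533 diabetic cells in Fib-2. Haemoglobin and Alas2 transcripts moved the other way, from 139 to 7993 CPM in Fib-2 and from 116 to 11577 CPM in VSMCs-2, with 53 of 907 and 309 of 533 cells of Fib-2 holding at least 2 of the 5 erythroid markers. Without cells with markers of another type the ratio of the summed ER genes was 0.642 in Fib-2, 0.651 in Fib-1, 0.625 in Fib-3, 0.878 in VSMCs-1, 0.784 in VSMCs-2, 0.754 in ECs and 0.824 in Mac. This filter left out cells with at least 2 smooth muscle, fibroblast, endothelial or macrophage markers not of their own type. It did not use erythroid, T cell, neutrophil or chondrocyte markers, so cells with those markers could remain. With cells under 1% haemoglobin UMIs it was 0.656, 0.6996, 0.661, 0.871, 0.767, 0.756 and 0.847 in the same order. The filter on markers of another type kept 472 of 907 control and 267 of 533 diabetic cells of Fib-2. It kept 167 of 366 and 128 of 228 of ECs, and 320 of 496 and 773 of 856 of VSMCs-2. In VSMCs-1 the members called lower went from 3 to 1 without cells with markers of another type. In Mac, all 5 T cell markers were found in both libraries with a sum of 548 and 1110 CPM, at least 2 of them were found in 91 of 510 control and 70 of 229 diabetic cells and at least 2 of the 4 neutrophil markers (3674 and 5265 CPM in sum) in 49 and 41, and the part of this in the higher values of Xbp1, Eif2ak3 and Sec61b was not tested. Chondrocyte markers went from 688 to 210 CPM in Fib-2, with Col2a1 at 371 and 4.25 CPM, and their part in the ER genes of that class was not tested. Immediate early genes, which tissue digestion can induce, were higher in sum in ECs (1.39), Fib-3 (1.22) and Fib-2 (1.17) and near level in VSMCs-2 (0.995), and their part in these results was not tested.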

How the data were processed

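The values are UMI counts for each gene in each barcode, not normalized, as deposited by the authors. The submitters' processing notes name Cell Ranger 3.1.0, Partek and the build mm10. The annotation release and barcode filters are not given in the sources used here. Cell classes are the authors' deposited labels. Only barcodes with a class were used, 2 diabetic barcodes listed with a blank class were dropped, and doublets were not removed. The tissue was digested and viable cells were sorted, per the labels' protocols, which can set class shares.

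UMIs were summed per library and class and scaled to CPM, with exact Poisson 95% intervals. Ratios have exact conditional binomial 95% intervals, which cover counting error only, and a count of 0 was set to 3 UMIs. Under equal cell weight and class weighting no such interval was computed, and the main interval was multiplied by the change of the ratio. Each call was made over all genes with at least 30 UMIs. For thinning, cells were drawn down to 1000 UMIs with seed 1. The minimum of 30 UMIs was applied anew to thinned counts and to the cells kept by a filter. A call can therefore be lost there through fewer UMIs alone. The computation of the intervals was checked in counts simulated from the same Poisson model. These counts held no variation between cells or mice, so the check says nothing of coverage in these data. Python 3.11.15, scipy 1.17.1, R 4.3.3 and edgeR 4.0.16 (scaling only) were used.

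All members are accounted for, and those called in a class or in all cells are given with their levels. At most 4 called genes per other list and class were named. The rule for members used names alone, but the members, lists, element searches and alternatives were chosen with earlier results of these data known. Alternatives were other scalings, count minimums and fold rules, equal cell weight, thinning, and the removal of deep cells, of cells with markers of another type or of the cell with most UMIs of a gene. The filter for markers of another type used smooth muscle, fibroblast, endothelial and macrophage markers only. Protein ends were not analysed here. The number of per-sample columns left unused was 0.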

Additional observations from a re-analysis of the deposited data

Results flagged for a closer look

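Trib3 moved in opposite directions in different classes. Its ratio of diabetic over control was 2.29 in Fib-2 (95% counting interval 1.39 to 3.81) and 0.549 in ECs (0.297 to 0.974), and the difference between the classes was not tested, since each group is 1 library. The Fib-2 value ranged from 2.24 to 4.82 over 9 alternatives and was not called after thinning, and the ECs value ranged from 0.525 to 0.650 and was not called under 3 of 9. These values rest on 70 UMIs in Fib-2 and 60 in ECs.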

How the results depend on the processing

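The summed ER genes kept a ratio below 1, with the interval excluding 1, under each of the 10 alternatives in each of the 7 classes (Fib-2 0.629 to 0.693, Fib-1 0.651 to 0.716, Fib-3 0.625 to 0.697, VSMCs-1 0.8005 to 0.916, VSMCs-2 0.734 to 0.787, ECs 0.743 to 0.792, Mac 0.781 to 0.911). For equal cell weight that interval was the main one moved with the ratio. Hspa5 kept its call in all 6 classes under each of 9 alternatives. Trimmed mean scaling moved log2 ratios by -0.12 in Mac and by -0.03 to 0.03 in the other classes. With a 2-fold rule, members lower were 2 of 22 in Fib-1 (2.25% of all genes), 5 of 30 in Fib-2 (1.41%), 3 of 23 in Fib-3 (3.1%) and 0 of 19 in VSMCs-1 (1.85%). They were 1 of 27 in VSMCs-2 (1.63%), 2 of 25 in ECs (1.67%), 1 of 27 in Mac (2.08%) and 4 of 31 in all annotated cells (4.46%). By that rule 1 of 27 was higher in Mac, where 4.18% of all genes were, and 1 of 30 in Fib-2 (1.57%). Thinning to 1000 UMIs left 5 lower in Fib-3, 2 lower and 0 higher in Mac and 0 higher in Fib-2, and gave 1 higher in all cells. A minimum of 100 UMIs left 5 lower in ECs (4.25% of all genes), 1 higher in Mac (7.76%) and 0 higher in Fib-2 (4.81%). Shares of all genes are not given here for thinning, other scalings or cell filters. Without cells with markers of another type, a filter that used no T cell or neutrophil markers, 1 was lower in VSMCs-1 and 3 in VSMCs-2, 4 were higher in Mac, and Syvn1 in Fib-2 turned to 1.01. Pdia3 became 1 member higher in VSMCs-1 under that setting, under trimmed mean scaling, in scaling without mitochondrial, ribosomal protein and haemoglobin genes (technical genes), in cells with 3 own markers and in cells with under 1% haemoglobin UMIs. Trimmed mean scaling left 1 higher in Mac, and scaling without technical genes gave 4 higher and 2 lower there. The secretory ratio of VSMCs-1 was 0.988 without technical genes and 0.989 without cells with markers of another type, with intervals that reach 1. With the 7 classes weighted by their control UMIs, 6 were lower in all cells. In the tertiles, at 2000 UMIs the lowest of VSMCs-1 was 1.00 and the middle of Mac 0.889, and with matrix proteins alone the lowest and highest of Mac were 0.802 and 0.937. The cause of these changes was not tested. The alternatives on own markers, haemoglobin and class weights were chosen after seeing the data. No paired analysis was possible because each group is 1 pooled library. Genes under 30 UMIs, most of them sensors and PERK-ATF4 outputs, could not be read by class at this depth.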
